A study of Mus musculus with 6 samples.

Results

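The genes described here are 53 members of the TGF-beta, BMP and activin pathway, followed in mouse ovarian cells that had received a mimic of the microRNA miR-15a-3p. They comprise 13 ligands, 4 proteins of ligand latency and processing, 13 receptors, 6 secreted antagonists and follistatin-family proteins, 7 Smads, 6 inhibitors that act in the cell and 4 target genes, out of 21125 named genes on the array. A member was taken as the transcript cluster (the array's unit for 1 gene) whose exon-level probe sets carry its symbol in the authors' deposited table, and all 53 were found. The cells were B/CMBA.ov cells, labelled as of ovarian tissue from the BALB/c strain, and both groups were lipid-transfected with a small RNA at 20 nM and harvested after 48 h. One group of 3 arrays carried RNA from cells given the miRIDIAN mmu-miR-15a-3p mimic, and the other group of 3 carried RNA from cells given a negative control mimic. The values are log2 array signals normalized by the authors. A log2 difference of 1 is a doubling, all differences below are mimic minus control, and errors of group means are standard deviations (SD, n = 3). Separate cultures are not stated for the 3 replicates of a group, so the p-values below describe array-to-array spread only, and that spread could be technical.

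TGF-beta family ligands are secreted as dimers, often in a latent form held in the matrix, and bind pairs of type I and type II receptor kinases. TGF-betas and activins act mainly through Smad2 and Smad3 and BMPs mainly through Smad1 and Smad5, each joined by the common partner Smad4 in the nucleus. Antagonists outside the cell, such as follistatin and gremlin, trap ligands, and Smad6, Smad7, Ski and SnoN hold the signal back inside. In the ovary the family is known for communication between the oocyte and its follicle, where activin, inhibin, AMH and GDF9 are made.

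The microRNA that was introduced comes from the 3′ arm of its hairpin precursor, which lies on the minus strand of mouse chromosome 14. Both arms are shown because the seed, bases 2 to 8 in capitals, largely determines which transcripts a microRNA pairs with, and the arms do not share it. The sequences are those of RefSeq on GRCm38.p6. The first is at chr14:61632038-61632059 and the second, which was not introduced, at chr14:61632075-61632096.
mmu-miR-15a-3p: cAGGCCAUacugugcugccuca
mmu-miR-15a-5p: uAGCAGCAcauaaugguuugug
Sites for the seed in the members' transcripts were not searched here.

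In the mimic cells 12 of the 53 members rose and 7 fell. The risen ones were Tgfb1, Bmp5, Ltbp1, Tgfbr1, Acvr1b, Acvr2a, Smad1, Smad7, Ski, Skil, Id2 and Tgfbi, and the fallen ones were Tgfb3, Bmp4, Inhbb, Fst, Grem1, Id1 and Id3. The changes were small: the highest was a 1.78-fold rise of Tgfbi and the lowest a fall of Id3 to a ratio of 0.598. Over all 21125 genes 1286 rose, 6.09%, and 1190 fell, 5.63%, so that 11.7% were called in either direction, against 35.8% of the members (19 of 53). A call is a limma adjusted p under 0.05 with Benjamini-Hochberg adjustment over all genes. Centring each array on its median turned the split over all genes to 986 risen and 1454 fallen, and that of the members to 10 risen and 7 fallen.

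Calls were more frequent among brighter genes. Of the genes whose mean log2 value reached the median of all gene means, 7.27, 19.2% were called (9.45% risen and 9.77% fallen), and of the 37 members on that side 18 were called. Of the 16 dimmer members 1 was called, Bmp5, beside 4.22% of the dimmer genes. No test of the list against other genes was made, and the members were chosen with earlier results of these data known. The median log2 fold change of the members was 0.05, beside 0.01 over all genes. In 32 members (21 higher and 11 lower with the mimic) the groups did not overlap, which held for 29.6% of all genes. This too was more frequent among brighter genes. On the brighter side it held for 29 of 37 members and 43.8% of genes. On the dimmer side it held for 3 of 16 members and 15.4% of genes. Without control replicate 3 the risen members numbered 7 and the fallen 5, while the calls over all genes dropped from 2476 to 1280. Without mimic replicate 3 the members' numbers were 8 and 6, with 1547 calls over all genes.

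**Figure D1:**
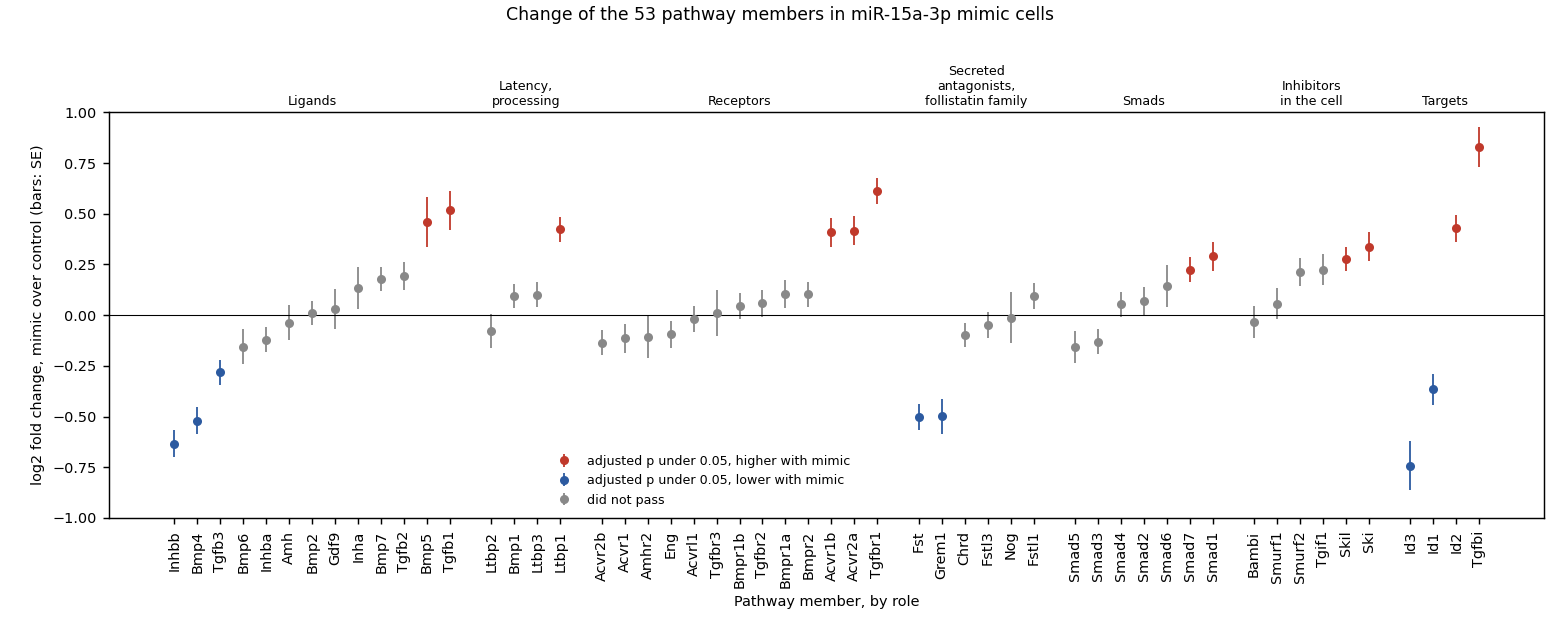
log2 fold change (vertical axis, mimic over control, bars 1 SE from limma, 3 arrays a group) of the 53 members (horizontal axis), grouped by role. Red points rose and blue points fell at an adjusted p under 0.05, and grey points did not pass. Red points reach 0.83 (Tgfbi) and blue points -0.74 (Id3).

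Over the 35556 transcript clusters r was 0.993 to 0.996 within groups and 0.989 to 0.993 between them, and array medians lay between 6.94 and 7.01. Marker lists gave a mixed picture of the cells. All 6 mesothelial markers (Upk3b, Lrrn4, Wt1, Msln, Upk1b and Gpm6a) and 7 of 8 fibroblast markers had a mean that reached the median over genes. So did 5 of 9 epithelial markers, among them Cdh1, Krt8 and Krt18 but not Epcam, and 2 of 10 granulosa cell markers, Nr5a1 and Gja1. The granulosa genes Foxl2, Cyp19a1 and Fshr were below it, as were all 7 oocyte, all 6 endothelial and 5 of 6 immune markers. No detection calls came with the values, so a low value is not a sign of absence. Of the mesothelial markers 4 of 6 fell and 0 rose, beside 9.77% and 9.45% of genes of at least median signal. The 4 were Upk3b, Lrrn4, Gpm6a and Wt1, with log2 fold changes of -1.40, -0.83, -0.39 and -0.37. Msln (0.04) and Upk1b (0.22, higher on every mimic array) did not pass, and the list's mean log2 value was 10.39 to 10.43 on the control arrays and 9.90 to 9.98 on the mimic arrays. Of the 9 epithelial markers 3 rose and 1 fell, beside 6.09% and 5.63% of all genes. Their mean was 7.89 to 7.93 on the control and 7.98 to 8.06 on the mimic arrays. The part of these shifts in the results below was not tested, and in such bulk RNA fewer cells of a type and less RNA per cell cannot be told apart.

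Among the 3 TGF-beta ligands Tgfb1 rose and Tgfb3 fell. Tgfb1, the best studied of the isoforms, read 8.40, 8.22 and 8.31 on the control arrays and 9.04, 8.67 and 8.78 on the mimic arrays. Every mimic array was above every control array, and mimic replicate 1 was the highest. Its log2 fold change was 0.52 ± 0.10 (SE; limma adjusted p = 0.0078), a 1.43-fold rise. Tgfb3 read 11.03, 11.09 and 11.10 with the control and 10.84, 10.76 and 10.78 with the mimic, again with no overlap. Its log2 fold change was -0.28 ± 0.06 (SE; limma adjusted p = 0.016), a call that was lost when replicate 2 or 3 of the mimic (0.055 and 0.063) or replicate 3 of the control (0.088) was left out. Tgfb2 was higher on every mimic array (10.44, 10.52 and 10.50 against 10.78, 10.61 and 10.64), but its log2 fold change of 0.19 did not pass (limma adjusted p = 0.11, 95% interval 0.04 to 0.34). It was called among genes of at least median signal (0.042), after quantile normalization (0.042) and with limma-trend (0.026).

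Of the BMP ligands Bmp4 fell and Bmp5 rose. Bmp4, which acts in early development and in follicle growth, read 9.32, 9.21 and 9.28 with the control and 8.79, 8.68 and 8.79 with the mimic. The groups were well apart, and the log2 fold change came to -0.52 ± 0.07 (SE; limma adjusted p = 0.001). Bmp5, another BMP, read 5.92, 6.01 and 5.80 with the control and 6.06, 6.55 and 6.51 with the mimic. Mimic replicate 1 was barely above the control arrays and the other 2 were clearly higher. The rise of 0.46 ± 0.12 on the log2 scale (SE; limma adjusted p = 0.040) was called among dim values. It did not pass without replicate 2 or 3 of the mimic or replicate 1 or 3 of the control (0.094 to 0.14). Nor did it pass after quantile normalization or in a fit over all transcript clusters (limma adjusted p = 0.12 in the latter). Bmp7 was higher on every mimic array (7.54, 7.58 and 7.51 against 7.72, 7.74 and 7.70) but did not pass (limma adjusted p = 0.093), except among genes of at least median signal (0.031). A second, dimmer transcript cluster of Bmp7, read by 1 probe set, had a log2 fold change of -0.16. Bmp6 had a log2 fold change of -0.16 and Bmp2 of 0.01, both with overlapping groups.

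The activin and inhibin subunit genes differed among themselves. Inhbb, the beta B subunit shared by activin B and inhibin B, read 8.04, 8.10 and 8.06 with the control and 7.52, 7.40 and 7.37 with the mimic. The control arrays lay within 0.1 of each other and far above the mimic arrays. Its change of -0.63 ± 0.07 on the log2 scale (SE; limma adjusted p = 0.00039) had the smallest adjusted p of the members. Inhba, the beta A subunit, was also lower on every mimic array (11.01, 11.01 and 11.02 against 10.96, 10.86 and 10.86). The difference, -0.12 with a 95% interval of -0.26 to 0.02, did not pass (limma adjusted p = 0.27). Inha, the alpha subunit of inhibin, and the follicle ligands Amh and Gdf9 had log2 fold changes of 0.13, -0.04 and 0.03 with overlapping groups.

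Of the 4 proteins that store or mature ligands 1 rose, beside 6.09% of all genes. Ltbp1 holds latent TGF-beta in the matrix, and its values were 10.25, 10.36 and 10.35 with the control and 10.76, 10.73 and 10.75 with the mimic. The groups were separated by far more than their spread, and the log2 fold change came to 0.42 ± 0.06 (SE; limma adjusted p = 0.0022). Ltbp3, a relative of Ltbp1, and Bmp1, a protease that cleaves procollagens and the BMP antagonist chordin, were slightly higher on every mimic array. Their log2 fold changes of 0.10 and 0.10 did not pass (limma adjusted p = 0.39 and 0.38). Ltbp2, another family member, overlapped between groups with a log2 fold change of -0.08.

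Of the 13 receptor genes 3 rose, Tgfbr1, Acvr1b and Acvr2a, beside 6.09% of all genes. They encode type I or type II receptors of TGF-beta or activin, as do Tgfbr2 and Acvr2b, which did not pass. No receptor fell (0 of 13). As 5.63% of all genes fell, 0 among so few does not set the receptors apart. Tgfbr1, the type I receptor of TGF-beta also called ALK5, read 9.06, 9.19 and 9.18 with the control and 9.76, 9.72 and 9.79 with the mimic. Each mimic array was higher than any control array by more than 0.5. The rise on the log2 scale was 0.61 ± 0.06 (SE; limma adjusted p = 0.00041), a 1.53-fold rise. Acvr1b, the type I activin receptor ALK4, read 7.26, 7.22 and 7.22 with the control and 7.72, 7.52 and 7.70 with the mimic. Acvr2a, a type II activin receptor, read 9.80, 10.01 and 9.91 with the control and 10.35, 10.32 and 10.31 with the mimic. Neither gene's groups overlapped. The rises were 0.41 ± 0.07 and 0.42 ± 0.07 on the log2 scale (SE; limma adjusted p = 0.0056 and 0.0046).

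Other receptors did not pass. Tgfbr2, the type II receptor of TGF-beta, read 10.83, 10.84 and 10.83 with the control and 11.00, 10.86 and 10.82 with the mimic, a log2 fold change of 0.06 with a 95% interval of -0.09 to 0.21. The BMP type I receptor Bmpr1a and the type II receptor Bmpr2 both had log2 fold changes of 0.10. Acvr2b, the second type II activin receptor, was lower on every mimic array with a log2 fold change of -0.14, and Acvr1, a type I receptor of BMPs, had one of -0.12 with overlapping groups. The other receptors and co-receptors, Tgfbr3, Bmpr1b, Acvrl1, Eng and the AMH receptor Amhr2, had log2 fold changes between -0.11 and 0.04, and all of them were on the dim side. Over the 10 receptors that did not pass, the 95% intervals reached from -0.34 to 0.27, short of the rise of Tgfbr1. The intervals describe array-to-array spread. Without detection calls they cannot exclude a larger change in the dim receptors, which the array may have read poorly.

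**Figure D2:**
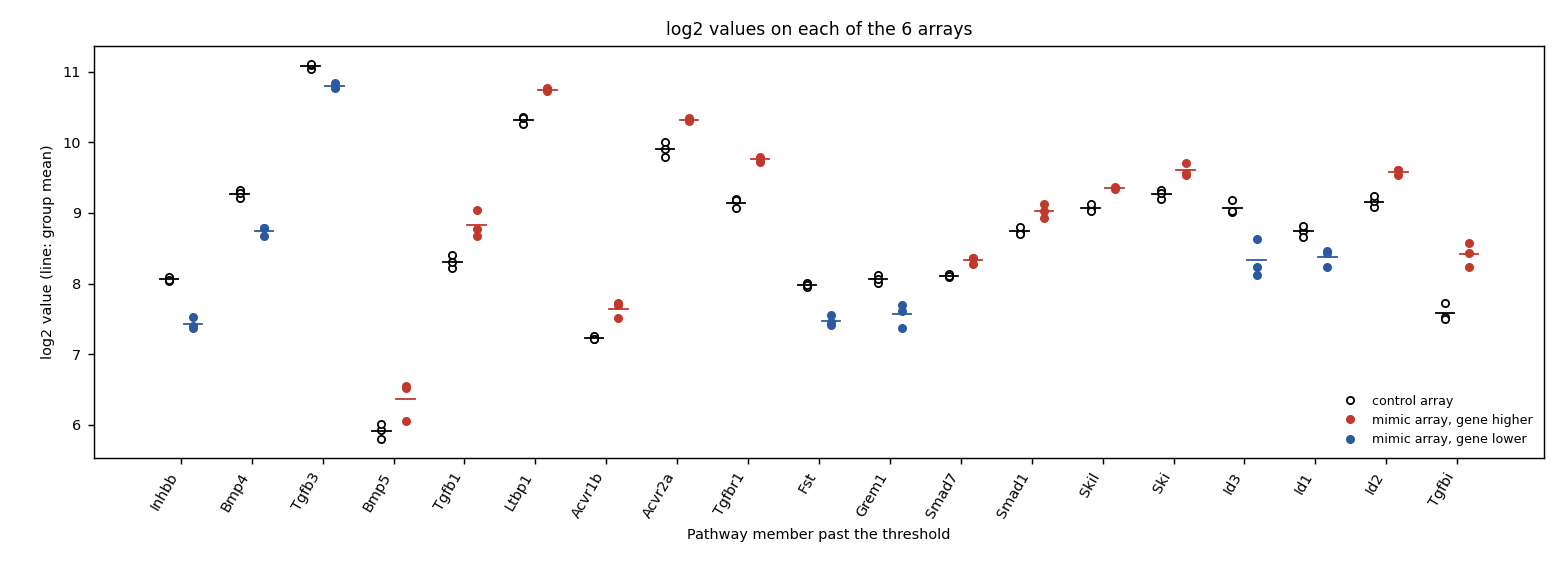
log2 value (vertical axis) on each of the 6 arrays for the 19 members past the threshold (horizontal axis). Open circles are control arrays, filled circles mimic arrays (red for risen, blue for fallen genes) and lines the group means; in each of the 19 genes the groups do not overlap.

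Of the 6 secreted antagonists and follistatin-family members 2 fell and 0 rose, while Nbl1, a BMP antagonist outside the 53, rose. Over all genes 5.63% fell and 6.09% rose. Follistatin, encoded by Fst, binds activin and blocks it. Its values were 7.95, 8.01 and 7.98 with the control and 7.46, 7.55 and 7.42 with the mimic. The arrays of each group lay close together and the groups apart, and the log2 fold change came to -0.50 ± 0.06 (SE; limma adjusted p = 0.0011). Grem1, gremlin, binds BMPs. It read 8.12, 8.01 and 8.06 with the control and 7.70, 7.62 and 7.38 with the mimic, with mimic replicate 3 the lowest. The change on the log2 scale was -0.50 ± 0.09 (SE; limma adjusted p = 0.0056). The BMP antagonist Chrd, chordin, was lower on every mimic array with a log2 fold change of -0.10, and Nog, noggin, another BMP antagonist, had one of -0.01 with overlap. The follistatin relatives Fstl1 and Fstl3 differed by 0.10 and -0.05 on the log2 scale, and none of these 4 passed. The transcript cluster of Fstl3 also holds 2 probe sets annotated first to another gene.

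Of the 7 Smads 2 rose, both weakly, and 0 fell, beside 6.09% and 5.63% of all genes. All 7 were of at least median signal, where 9.45% of genes rose. Smad1, which carries BMP signals, read 8.71, 8.80 and 8.70 with the control and 9.03, 8.93 and 9.12 with the mimic. Smad7, which blocks type I receptors, read 8.09, 8.13 and 8.10 with the control and 8.27, 8.36 and 8.36 with the mimic. Neither pair of groups overlapped, but the differences were small. They came to 0.29 ± 0.07 for Smad1 and 0.22 ± 0.06 for Smad7 on the log2 scale (SE; limma adjusted p = 0.029 and 0.042). The call of Smad1 was lost without mimic replicate 1 or 3 or control replicate 1 or 3 (0.072 to 0.13), and that of Smad7 without any single array but mimic replicate 1 (0.078 to 0.16). Both were also lost with arrays centred on their medians (limma adjusted p = 0.060 and 0.11). The receptor-driven Smad2 and Smad3, the common Smad4, the BMP Smad5 and the inhibitory Smad6 had log2 fold changes of 0.07, -0.13, 0.05, -0.16 and 0.15, none of which passed. Smad3 was nonetheless lower on every mimic array, at 10.02, 9.94 and 9.90 against 10.10, 10.07 and 10.09.

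Of the inhibitors that act inside the cell 2 of 6 rose and 0 fell, beside 6.09% and 5.63% of all genes. Ski and Skil, the gene of SnoN, are co-repressors that bind Smads. Ski read 9.32, 9.20 and 9.29 with the control and 9.71, 9.54 and 9.57 with the mimic. Skil read 9.06, 9.12 and 9.03 with the control and 9.36, 9.33 and 9.35 with the mimic. In both genes all mimic arrays were above all control arrays. The rises were 0.34 ± 0.07 and 0.28 ± 0.06 on the log2 scale (SE; limma adjusted p = 0.014 and 0.016). Without control replicate 3 neither passed (0.054 and 0.097), and Skil did not pass without mimic replicate 3 (0.060). Smurf2, a ubiquitin ligase for Smads and receptors, and Tgif1, a Smad co-repressor, were higher on every mimic array as well. Their log2 fold changes of 0.21 and 0.22 did not pass (limma adjusted p = 0.089 and 0.097), although both were called among genes of at least median signal (0.035 and 0.041) and with limma-trend (0.013 and 0.020), and Smurf2 after quantile normalization (0.047). Smurf1, a relative of Smurf2, and Bambi, a receptor decoy, overlapped between groups with log2 fold changes of 0.06 and -0.03.

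All 4 target genes changed, 2 in each direction, beside 11.7% of all genes called. All 4 were of at least median signal, where 19.2% of genes were called. The 4 were chosen with earlier results of these data known, and of 16 further targets described below 2 were called. The Id genes encode inhibitors of basic helix-loop-helix transcription factors and are direct targets of BMP Smads, and Tgfbi encodes a matrix protein first found as induced by TGF-beta. Id3 read 9.01, 9.03 and 9.18 with the control and 8.63, 8.12 and 8.24 with the mimic. Mimic replicate 1 was nearer to the controls than the other mimic arrays, and the groups did not overlap. The log2 fold change of Id3 was -0.74 ± 0.12 (SE; limma adjusted p = 0.0039). Id1 read 8.75, 8.66 and 8.81 with the control and 8.46, 8.23 and 8.43 with the mimic. Its log2 fold change was -0.37 ± 0.08 (SE; limma adjusted p = 0.015), which did not pass without control replicate 3 (0.076). In a fit over all transcript clusters, named or not, Id1 did not pass either (limma adjusted p = 0.054). Id2 went the other way, from 9.08, 9.16 and 9.23 to 9.61, 9.54 and 9.61. The mimic arrays of Id2 lay close together and above all controls, and the rise was 0.43 ± 0.07 on the log2 scale (SE; limma adjusted p = 0.0031). Tgfbi read 7.73, 7.53 and 7.50 with the control and 8.58, 8.23 and 8.43 with the mimic. Its rise of 0.83 ± 0.10 on the log2 scale (SE; limma adjusted p = 0.00074) was the highest of the members.

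Because these targets moved in opposite directions, the 250 bases before their starts are shown for those 3 that the RefSeq promoter table (GRCm38.p6) holds, each 5′ to 3′ on the gene's strand. Capitals mark the Smad box, CAGAC or its reverse complement GTCTG, and the GC element GGCGCC, which is its own reverse complement. The Id3 window is chr4:136143572-136143821 on the plus strand, that of Id2 is chr12:25096093-25096342 on the minus strand and that of Tgfbi is chr13:56609336-56609585 on the plus strand.
Id3: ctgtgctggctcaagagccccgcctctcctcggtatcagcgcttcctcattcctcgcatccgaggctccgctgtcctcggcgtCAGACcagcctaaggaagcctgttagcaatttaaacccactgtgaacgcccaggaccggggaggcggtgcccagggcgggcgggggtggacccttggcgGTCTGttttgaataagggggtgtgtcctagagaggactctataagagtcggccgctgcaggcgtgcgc
Id2: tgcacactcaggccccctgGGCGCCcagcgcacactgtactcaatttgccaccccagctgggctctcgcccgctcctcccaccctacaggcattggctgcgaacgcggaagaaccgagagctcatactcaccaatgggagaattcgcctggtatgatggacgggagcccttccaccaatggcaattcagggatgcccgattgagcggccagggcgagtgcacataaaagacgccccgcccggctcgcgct
Tgfbi: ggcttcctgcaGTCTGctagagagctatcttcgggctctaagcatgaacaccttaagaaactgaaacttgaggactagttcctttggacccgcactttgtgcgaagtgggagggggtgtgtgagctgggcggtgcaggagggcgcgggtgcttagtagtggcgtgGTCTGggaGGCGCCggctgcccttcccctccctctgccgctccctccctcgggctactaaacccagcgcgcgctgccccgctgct
The window of the fallen gene Id3 holds 2 Smad boxes and 0 GC elements, that of the risen Id2 holds 0 and 1, and that of the risen Tgfbi holds 2 and 1. Of all 32851 promoter windows of this length 42.2% hold a Smad box and 9.59% a GC element. The table matched 37 of the 53 members, with 47 windows since some genes have several starts, and 25 of these windows hold a Smad box and 10 a GC element. A Smad box was found in 6 of 12 windows of risen, 2 of 4 of fallen and 17 of 31 of members that did not pass, and a GC element in 4, 1 and 5 of them. A match is a run of letters and not a shown binding site.

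The 34 members that did not pass had log2 fold changes between -0.16 and 0.22. In 13 of these 34 the groups still did not overlap, which held for 20.3% of all genes that did not pass. That share was not split by signal, although groups without overlap were more frequent among brighter genes. Of the 13, 9 were higher on every mimic array (Bmp7, Tgfb2, Ltbp3, Bmp1, Bmpr2, Fstl1, Smad4, Smurf2 and Tgif1) and 4 lower (Inhba, Acvr2b, Chrd and Smad3). Just past the threshold stood Smad7 (limma adjusted p = 0.042) and Bmp5 (0.040), and just short of it Smurf2 (0.089), Bmp7 (0.093) and Tgif1 (0.097).

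A second summary, the authors' deposited table, gives a ratio and an unadjusted p for 629 exon-level probe sets of the members. It comes from the same experiment and adds no independent sample, and its statistics fit a model of 3 groups, so it is not known which arrays its ratios compare. Of these probe sets 122, or 19.4%, had p under 0.05 by the authors' deposited table, beside 11.9% of all 241419. For the 12 risen members the authors' deposited table lists 152 probe sets, of which 62 were higher with p under 0.05 and 0 lower. For the 7 fallen members the authors' deposited table lists 38, of which 20 were lower at that p and 0 higher. The remaining 439 in the authors' deposited table held 28 higher and 12 lower, 9.11% together. The members were sorted here by calls from the same experiment. The directions and the contrast with the remaining probe sets thus follow largely from that sorting and are no separate support.

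Single genes were read evenly or unevenly along their length. Tgfb3 was even: the ratios of its 10 probe sets lay between 0.733 and 0.841 in the authors' deposited table, 6 of them with p under 0.05. Tgfbr1 had 10 of 13 probe sets higher at that p by the authors' deposited table, and ratios ran from 0.894 to 2.04. Ltbp1 had 17 of 36 higher with ratios from 0.998 to 2.55, and Acvr2a 8 of 13 with ratios from 1.10 to 1.57, by the authors' deposited table. The spread was widest for Tgfbi, for which the authors' deposited table gives 17 ratios from 0.931 to 5.03, with 8 higher at p under 0.05. Grem1 was uneven as well, since the authors' deposited table gives ratios from 0.470 to 1.19 for 6 probe sets and p under 0.05 for 2 of the lower ones. Smad1 was read by 11 probe sets, and 0 of them reached p under 0.05 by the authors' deposited table. Inhbb was read by 2, with ratios of 0.527 and 0.797 in the authors' deposited table, so few probe sets cover it. Only 1 of these 2 reached p under 0.05 by the authors' deposited table. For Acvr1b 1 of 9 probe sets did so and for Smad7 1 of 8, by the authors' deposited table. All 3 ratios of Id3 in the authors' deposited table were below 1, from 0.321 to 0.541.

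**Figure D3:**
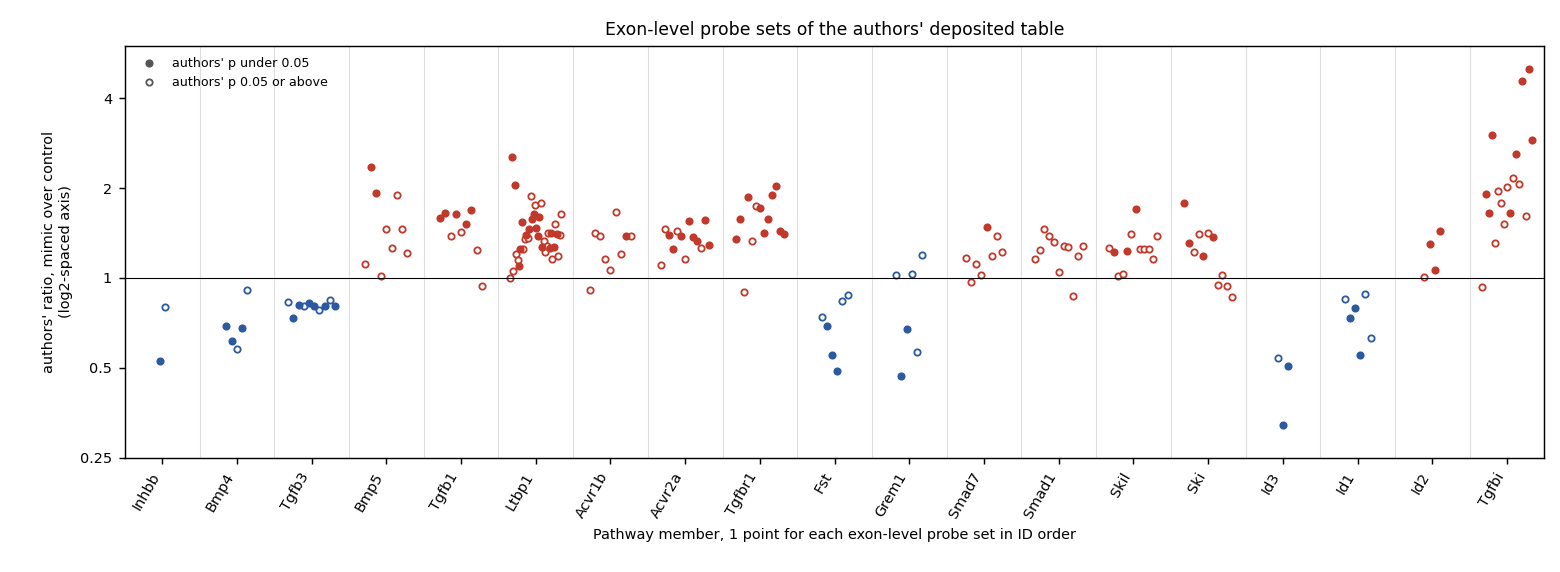
Ratio of mimic over control (vertical axis, log2-spaced) of each exon-level probe set in the authors' deposited table, in ID order within each of the 19 members past the threshold (horizontal axis). Filled points have the authors' p under 0.05; the 6 filled points of Tgfb3 lie between 0.733 and 0.825 and those of Tgfbi reach 5.03.

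Genes of the pathway outside the 53 were called about as often as other genes. Of a list of 94 further ligands, processing factors, receptors, antagonists, signal transducers and targets, 4 rose and 7 fell. That is 11.7% called, the share over all genes, and the median log2 fold change was -0.03. The calls of the 94 were not split by signal. Of the 94 genes 55 were of at least median signal, where 19.2% of genes were called. The antagonist Tmeff1, a membrane protein with follistatin domains, rose from a mean of 9.42 to 9.98 (log2 fold change 0.56 ± 0.07, SE), and the BMP antagonist Nbl1 rose from 7.89 to 8.30. The ubiquitin ligase Trim33, which acts on Smad4, and the endosomal protein Zfyve16 rose by 0.37 and 0.45 on the log2 scale. Gdf6, a BMP-like ligand, had a log2 fold change of -0.40. Furin, the convertase that cuts TGF-beta precursors, had one of -0.34, the receptor gene Neo1, neogenin, -0.31, and Strap, a partner of Smad7, -0.42. Dcn, decorin, which binds TGF-beta, fell with a log2 fold change of -0.30.

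Most of the wider set of target genes did not pass, and the share called, 12.5%, was near the 11.7% over all genes. In this set 10 of 16 were of at least median signal, where 19.2% of genes were called. Of 16 further targets 2 fell and 0 rose: Ccn2, connective tissue growth factor, from 12.23 to 11.77 (log2 fold change -0.46 ± 0.06, SE; limma adjusted p = 0.0016) and Tagln, a smooth muscle protein, from 11.10 to 10.77 (-0.33). The matrix genes Fn1, fibronectin, and Col1a1, a collagen chain, had log2 fold changes of -0.07 and -0.08, and the transcription factor gene Junb had one of -0.03. The fourth Id gene, Id4, had a log2 fold change of 0.07 (limma adjusted p = 0.66). The number fallen among the 94 genes was 3 without control replicate 3 and 4 without mimic replicate 3.

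The calls differed in how they withstood the loss of an array. Of the 19 called members 12 were called with each array left out in turn and in every other alternative fit: Bmp4, Inhbb, Tgfb1, Ltbp1, Tgfbr1, Acvr1b, Acvr2a, Fst, Grem1, Id2, Id3 and Tgfbi. The calls of Bmp5, Tgfb3, Smad1, Smad7, Ski, Skil and Id1 were lost in at least 1 fit. A further fit took all 6 arrays and all 35556 transcript clusters in place of the named genes. There Bmp5 (limma adjusted p = 0.12), Smad1 (0.074), Smad7 (0.078) and Id1 (0.054) did not pass. With 1 array left out the log2 fold change of Id3 ran from -0.89 to -0.64 and that of Tgfbi from 0.75 to 0.92, while that of Tgfbr1 stayed between 0.57 and 0.63.

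**Figure D4:**
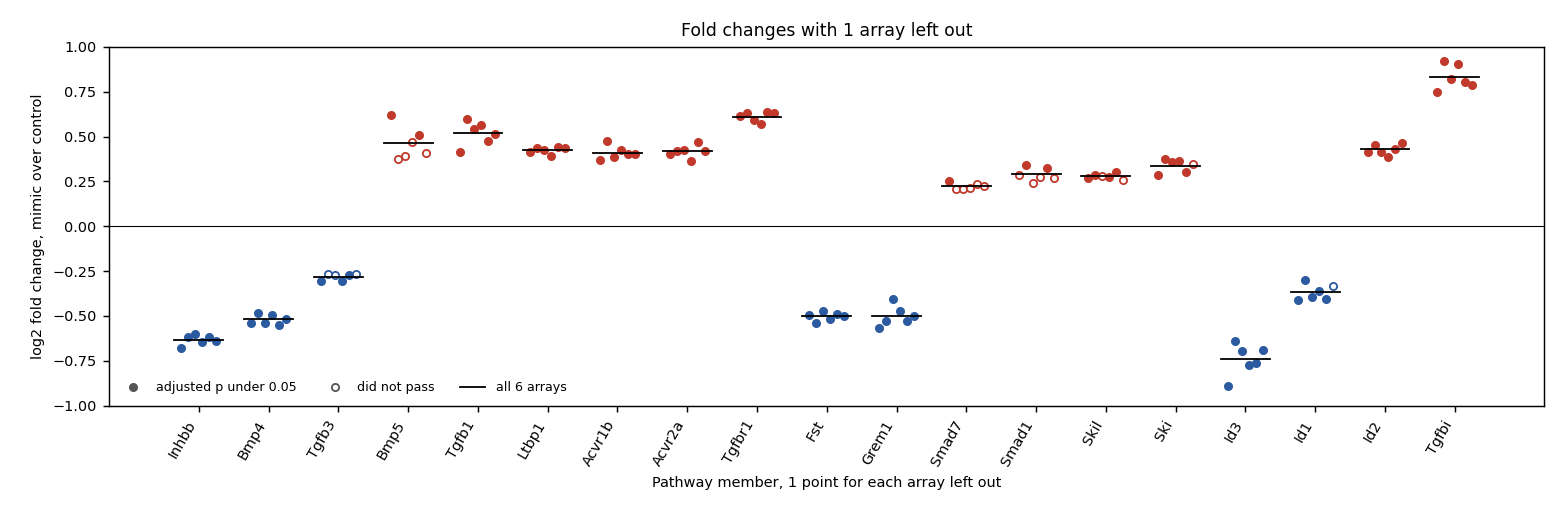
log2 fold change (vertical axis, mimic over control) of the 19 members past the threshold (horizontal axis) with each of the 6 arrays left out, from left to right mimic replicates 1 to 3 and control replicates 1 to 3. Filled points kept an adjusted p under 0.05, open points did not, and black lines give the value from all 6 arrays; 12 genes have filled points alone.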

How the data were processed

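RNA of 3 mimic and 3 control arrays was amplified, biotin-labelled and hybridised, per the labels' protocols. The authors deposited log2 values of 35556 transcript clusters for each array. Tools named in the submitters' processing notes are Affymetrix Expression Console, Partek, RMA and MAS5, without roles. The annotation build was not given in the sources used here. That the scale is log2 was read from the range, 2.73 to 13.91, and no detection call came with the values. The authors' deposited table holds, per the file headers, a linear ratio, an unadjusted p-value and scores (a signed fold change, F statistics and sums of squares) for 241419 exon-level probe sets. Its F values equal 1.5 times the ratio of its sums of squares, as a model with 2 group and 3 error degrees of freedom gives, so the authors' model did not hold 2 groups of 3 arrays alone, and which arrays its ratios compare was not established.

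Clusters were named from the probe sets whose IDs lie between the cluster's ID and the next. Over 17009 clusters the log2 fold change and the authors' ratio correlated with r = 0.936, against 0.0955 and 0.0968 for the neighbouring clusters. Symbols were updated through the RefSeq table of GRCm38.p6. The symbols numbered 1 for 24115 clusters, several for 834 and 0 for 10607, and 20886 single symbols were matched by accession, 1867 by symbol and 596 by synonym, while 766 were kept as in the file. The cluster with the highest mean was used for the 1702 genes with several. Fstl3 was kept by the member rule although its cluster holds another symbol too. This left 21125 genes.

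The test was limma (lmFit and eBayes, limma 3.58.1, R 4.3.3) on the deposited log2 values, two-sided, with no filter and no block. The code was tested on simulated data. Tried instead were a minimum mean log2 value of 6 or of the median, quantile normalization, centring on array medians, a block for the replicate number, limma-trend, the mean of a gene's clusters, and each array left out. A fit over all transcript clusters was also made and is not part of the counts over these alternatives. The members, the role groups, the list of 94 further genes and the marker lists were chosen with earlier results of these data known. The naming rule took every member, per-array values for those past the threshold, and up to 12 of the further genes past it with the largest changes. Members and targets named beside them that did not pass were chosen after their values were seen. Precision is limited by the number of arrays. The authors' filtered table was not used here. One result for a further target gene is not reported here.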

Additional observations from a re-analysis of the deposited data

How the results depend on the processing

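Of 669 values of single members under the alternatives, 610 kept their direction and their side of the threshold, 28 lost a call and 9 gained one. The signal filters, the replicate block and limma-trend leave the fold change as it is, so no direction could change there. The 610 also include values of members that did not pass and stayed so. The lost calls lay in 7 members and no called member changed sign. Reversals (22 values) lay in 9 members that did not pass. Their log2 fold changes from all 6 arrays lay between -0.04 (Amh) and 0.06 (Smurf1). The reversed values reached -0.1117 for Tgfbr3 and 0.1553 for Nog. With 1 array left out the log2 fold change ran from -0.0528 to 0.0122 for Acvrl1, from -0.0966 to 0.0546 for Amh, from -0.0953 to 0.0329 for Bambi, from -0.0034 to 0.0285 for Bmp2, from -0.037 to 0.1305 for Gdf9, from -0.1168 to 0.1553 for Nog, from -0.0083 to 0.0997 for Smurf1 and from -0.1117 to 0.0906 for Tgfbr3. Quantile normalization turned Bmp2 to -0.0453, Bmpr1b to -0.0017, Gdf9 to -0.0047 and Tgfbr3 to -0.0189, and median centring turned Bmp2 to -0.0217, Gdf9 to -0.0021 and Tgfbr3 to -0.0201. With 1 array left out, 1280 to 2057 genes were called (676 to 1115 risen, 604 to 1119 fallen), 7 to 11 members rose and 5 to 7 fell, and of the 94 further genes 4 to 5 rose and 3 to 7 fell. Of those 94, 12 fell with genes below the median signal left out, where fewer genes are tested, and 13 with limma-trend; the cause of the latter was not tested. Replicate numbers did not pair the arrays: same-numbered deviations correlated with r = -0.05, -0.28 and 0.04, and mimic replicate 2 correlated best with control replicate 1 (0.33). With the replicate number as a block, 1727 genes were called, 9 members rose and 6 fell, and Skil, Smad1, Smad7 and Tgfb3 were not called. Without detection calls, the depth of the dim members cannot be judged.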

Other observations

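Single probe sets of members that did not pass stood apart in the authors' deposited table. Among 36 probe sets of Ltbp2 the highest ratio in the authors' deposited table was 2.42, and among 16 of Smad4 the lowest was 0.283, which did not reach p under 0.05. For Smurf2 the authors' deposited table has 7 of 20 probe sets higher with p under 0.05 and 0 lower, while the gene's own limma adjusted p was 0.089. A second transcript cluster of Smurf2, read by 1 probe set, had a log2 fold change of 0.08.

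The keratins on the epithelial list split: Krt8 (log2 fold change 0.69), Krt19 (0.63) and Krt18 (0.26) rose, whereas Krt7 (-0.75) fell. Of the 8 fibroblast markers 1 rose, Pdgfra (0.34), and 1 fell, Dcn (-0.30), with a list mean of 10.22 to 10.26 on the control and 10.13 to 10.21 on the mimic arrays. Of the endothelial markers 1 of 6 fell, Tek, at -0.52 with a mean of 6.84 on the control arrays, while Pecam1, Cdh5, Kdr, Tie1 and Emcn did not pass. None of the 6 immune, 10 granulosa cell or 7 oocyte markers passed (0 of each with limma), and at an unadjusted p under 0.05 there were 0, 1 and 0. Over all genes 6.09% rose and 5.63% fell, and 5092 of 21125 had an unadjusted limma p under 0.05.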
